A study of Mus musculus with 24 samples.

Results

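Oligodendrocyte precursor and differentiation genes were followed through the aged mouse hippocampus as 9 gene rows, chosen by name: Pdgfra, Cspg4, Gpr17, Enpp6, Bcas1, Bmp4, Olig1, Olig2 and Sox10. All 9 were found among the 49568 gene rows listed for every library, and all 9 passed the filter on low counts that left 20187 genes for testing. The design crossed genotype with housing in male mice on a C57-Bl/6J background, killed at 21 to 23 months of age. Wild type (WT) and MSK1 KD mice were either kept in standard housing (WTSH and KDSH) or moved at 18 months to enriched housing (WTEE and KDEE). MSK1 KD is a knock-in point mutation in the endogenous gene of the kinase MSK1 that abolishes its N-terminal kinase activity in every cell, so the genotype is not specific to any cell type, and mutant and WT mice came from separately kept lines. Each library came from the hippocampus of 1 mouse, with 6 libraries per group, of which the study set aside WTSH mice 4 and 7 and KDSH mouse 6 for ribosomal RNA contamination and poor correlation with their group. The remaining 21 libraries (4 WTSH, 6 WTEE, 5 KDSH and 6 KDEE) carried 27410239 to 71907130 counts on genes.

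Oligodendrocytes, the myelin-forming cells of the central nervous system, arise throughout life from oligodendrocyte precursor cells, which are dispersed through the hippocampus. A precursor carries the receptor PDGFRα and the proteoglycan NG2 on its surface, passes through a committed stage and a newly formed oligodendrocyte stage, and then expresses the major myelin proteins. The transcription factors Olig1, Olig2 and Sox10 are present along the whole lineage, whereas Pdgfra, Gpr17 and Enpp6 each mark a limited stretch of it. In RNA from whole tissue, fewer cells of a type and less RNA per cell cannot be told apart.

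In GRCm38 with the GENCODE M21 gene models, all 9 are protein-coding genes. Pdgfra lies on chromosome 5 (75152292 to 75198215, plus strand), Cspg4 on chromosome 9 (56865033 to 56899870, plus), Enpp6 on chromosome 8 (46986887 to 47096762, plus) and Bcas1 on chromosome 2 (170346991 to 170427845, minus). Bmp4 lies on chromosome 14 (46383520 to 46390669, minus) and Sox10 on chromosome 15 (79154908 to 79165240, minus). Olig1 (91269772 to 91271933, plus) and Olig2 (91225457 to 91228677, plus) are neighbours on chromosome 16. Exons of Gpr17 overlap Lims2 on the opposite strand, and those of Pdgfra, Bcas1, Bmp4 and Olig1 overlap other annotated transcripts. Because reads were counted without regard to strand, a read over overlapping exons could not be given to a single gene. Ambiguous reads were set apart, 1372119 to 8034475 per library, and how many of them fell on these genes is uncertain.

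The bases just upstream of 3 members are shown. Pdgfra, which marks precursors, and Enpp6, which marks forming oligodendrocytes, were chosen because they varied together across libraries (Pearson r = 0.56). That r was 0.31 without the 5 libraries rich in choroid plexus markers. Olig2 was chosen because it belonged to a group of 3 transcription factors that varied together. Sequences are from the RefSeq promoter table (GRCm38.p6), which held 5 of the 9 members, on the plus strand and ending before the first annotated transcript base. Capitals mark matches to the E-box CANNTG, the class of site bound by basic helix-loop-helix factors such as Olig1 and Olig2, or to ACAANG, a core of sites bound by SOX factors, each searched on both strands.
Pdgfra, chr5:75152001-75152250: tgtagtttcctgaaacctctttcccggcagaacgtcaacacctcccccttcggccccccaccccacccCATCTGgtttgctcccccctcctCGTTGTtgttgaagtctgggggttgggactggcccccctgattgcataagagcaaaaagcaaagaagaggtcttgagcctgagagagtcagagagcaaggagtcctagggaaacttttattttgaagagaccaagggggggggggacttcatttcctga
Enpp6, chr8:46986637-46986886: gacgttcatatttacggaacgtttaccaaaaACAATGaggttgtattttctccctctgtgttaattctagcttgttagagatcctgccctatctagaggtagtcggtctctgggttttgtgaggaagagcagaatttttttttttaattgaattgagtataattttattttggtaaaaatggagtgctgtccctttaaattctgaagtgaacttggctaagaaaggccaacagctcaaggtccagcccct
Olig2, chr16:91225300-91225456: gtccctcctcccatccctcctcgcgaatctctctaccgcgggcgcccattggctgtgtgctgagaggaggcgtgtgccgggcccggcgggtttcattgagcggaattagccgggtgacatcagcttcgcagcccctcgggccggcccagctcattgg
The Pdgfra stretch held 1 E-box and 1 SOX match, the Enpp6 stretch 1 SOX match, and the 157 bases upstream of Olig2 neither. Among 32851 promoters, 66.2% held the E-box and 36.3% the SOX letters in a window of 250 bases, and 50.8% and 25.1% in one of 157 bases. The GC content was 54.4% for Pdgfra, 38.4% for Enpp6 and 66.9% for Olig2. These letters are common, and a match is a description of the sequence only.

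The tissue label was checked first. The neuronal markers Snap25, Neurod6 and Prox1 were abundant in all 4 groups, and the mean log2 CPM of 6 hippocampal neuron markers ranged from 7.17 to 7.46 over the 21 libraries. Markers of the choroid plexus, the secretory tissue of the adjacent ventricle, were uneven. Their mean log2 CPM over 7 genes was 5.31 to 7.20 in 5 libraries (WTSH mouse 19, WTEE mice 10 and 13, KDEE mice 12 and 14) and 0.02 to 1.86 in the other 16, so 4 of the 5 were enriched and none was KDSH. These 5 are called plexus-rich below, and results were also computed without them. WTEE mouse 10 stood apart in other respects too: its Rps6ka5 (MSK1) level was 621 normalized counts, against 943 to 1127 in the other 20 kept libraries. A point mutation need not alter the mRNA level, so Rps6ka5 does not check the genotype labels.

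**Figure D1:**
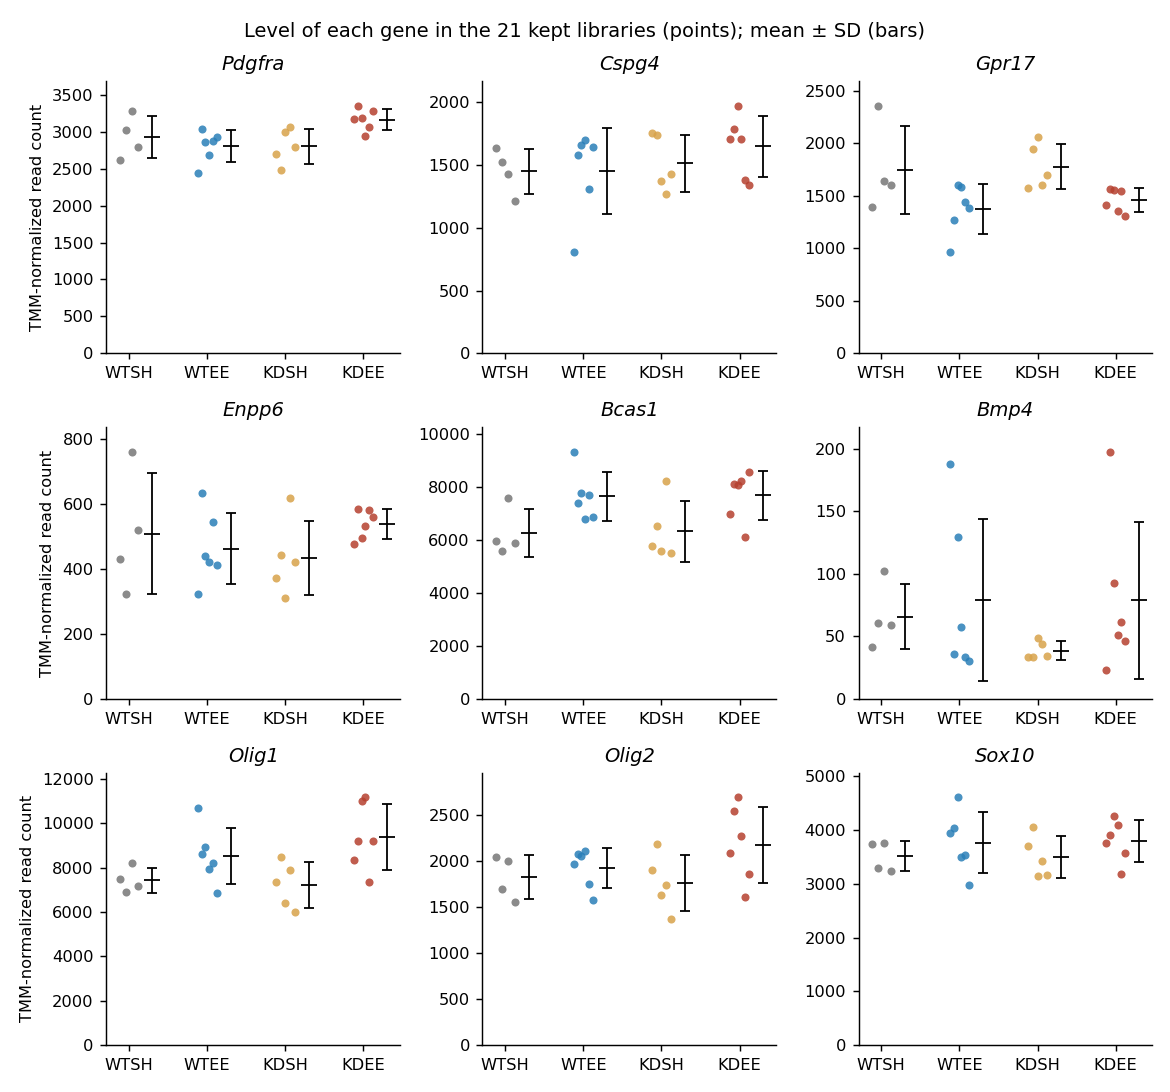
TMM-normalized read counts (y axis, from 0) of the 9 genes in the 21 kept libraries by group (x axis), 1 point per mouse, with the mean and SD beside the points. Gpr17 is lower in every KDEE library than in every KDSH library, the low Cspg4 point is WTEE mouse 10 (809), and Bmp4 lies between 92.6 and 198 in 5 libraries and at or below 61.5 in the other 16.

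Levels are given as counts divided by edgeR's TMM scaling and brought to the mean depth of the 21 libraries (normalized counts), and between genes only per kilobase of exon (RPKM computed from the same scaling). Exon length includes stretches shared with other genes, whose reads may be uncounted, so RPKM may be too low for the overlapped members. Per length, Olig1 was the most abundant member with 79.5 ± 13.7 RPKM (SD, n = 21), ahead of Bcas1 with 39.0 ± 6.27. Their ranges over libraries, 57.6 to 108 and 30.4 to 51.4, did not overlap. Sox10 followed with 25.0 ± 2.87 and Olig2 with 16 ± 2.70 RPKM, each overlapping its neighbour above. Gpr17 (6.27 ± 1.17) and Pdgfra (6.09 ± 0.529) were not separated from each other, but both lay below the lowest Olig2 value of 11.2 RPKM. Cspg4 (2.65 ± 0.450) lay below them, and overlapped Enpp6 (1.58 ± 0.372), which in turn overlapped Bmp4 (0.619 ± 0.456).

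Variation between mice differed widely among the members. Pdgfra was the steadiest, with a coefficient of variation of 8.69% over the 21 libraries and a highest level 1.37 times its lowest. Sox10 had a coefficient of 11.5%, and Bcas1, Cspg4, Olig2, Olig1 and Gpr17 lay between 16.1% and 18.6%. Enpp6 reached 23.6% and Bmp4 73.6%, the latter from 24 to 195 raw counts per library. Around the group means, the SD of log2 CPM was 0.11 for Pdgfra and 0.84 for Bmp4, with a median of 0.21 over all tested genes.

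Each comparison asked whether enriched housing, or the loss of MSK1 kinase activity, changed the level of these genes. With all 4 groups in 1 edgeR model and calls at an adjusted p under 0.05 and an absolute log2 fold change above 0.38, 0 of the 9 members were called in any of 7 contrasts. The same thresholds called 0.00495% of the 20187 genes (1 gene) for enriched against standard housing averaged over genotype, and 0% in the other 6 contrasts. DESeq2 called more genes, from 0 to 118 per contrast, but none of the 9. At an unadjusted p under 0.05, 2 members were higher and 1 was lower with enrichment, against 9.77% and 9.13% of all genes. The 2 within-genotype comparisons and their average use the same libraries, and KDSH and WTSH also serve the genotype comparison, so the contrasts below are not independent of each other.

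Gpr17, a receptor of committed precursors that is switched off as they mature, was the member with a lower level in enriched mice. It had 1388, 1605, 1641 and 2356 normalized counts in the 4 WTSH libraries and 969 to 1599 in the 6 WTEE libraries, with a median of 1412. In MSK1 KD mice it had 1569, 1605, 1697, 1945 and 2056 counts in KDSH and 1311 to 1566 in KDEE, with a median of 1479. The WT groups overlapped, whereas all 6 KDEE libraries lay below all 5 KDSH libraries, although the closest values differed by little. That separation gave an exact permutation p of 0.00433 (two-sided), the smallest that 5 against 6 libraries allow, and it was the only one among 36 comparisons of 9 members in 4 pairs of groups; 0.936% of all genes were as cleanly lower in KDEE. Elsewhere, the share of genes with no overlap was 0.907% (higher in KDEE than in KDSH), 0.481% and 0.505% (higher and lower in WTEE than in WTSH), 0.233% and 0.411% (in KDSH than in WTSH), and 0.104% and 0.52% (in KDEE than in WTEE). The log2 fold change was -0.28 (SE 0.13, edgeR adjusted p = 0.406) in MSK1 KD and -0.35 (SE 0.13, adjusted p = 0.651) in WT mice. Averaged over genotype it was -0.31 (SE 0.09, unadjusted p = 0.00246, adjusted p = 0.189), and all 12 enriched libraries lay below the median of the 9 standard-housed ones. An exact permutation of housing among mice within genotype, over 97020 arrangements and without regard to cage, gave an unadjusted p of 0.00243. WTSH mouse 5 had the highest level of all, and without it the WT fold change was -0.17 and the averaged one -0.22.

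Bcas1, which newly formed and myelinating oligodendrocytes express, had the opposite direction. WTSH libraries had 5580, 5896, 5959 and 7576 normalized counts, and WTEE libraries 6795 to 9331 with a median of 7534. KDSH libraries had 5511, 5569, 5786, 6521 and 8222 counts, and KDEE libraries 6115 to 8572 with a median of 8093. Of the standard-housed libraries 1 WTSH and 2 KDSH reached into the enriched range of their genotype, and all 12 enriched libraries exceeded the standard-housed median. The log2 fold change was 0.29 (SE 0.12) in WT and 0.28 (SE 0.11) in MSK1 KD mice, and 0.28 on average (SE 0.08, unadjusted p = 0.00241, edgeR adjusted p = 0.189). The exact permutation p within genotype was 0.00405.

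Enpp6, an enzyme that marks oligodendrocytes in the process of forming, showed no common direction. It ranged from 323 to 762 normalized counts in WTSH, 325 to 633 in WTEE, 312 to 618 in KDSH and 478 to 585 in KDEE, and the groups overlapped throughout. Its log2 fold change with enrichment was -0.14 (SE 0.20) in WT and 0.31 (SE 0.19) in MSK1 KD mice, and the difference between these effects was 0.45 (SE 0.28, edgeR unadjusted p = 0.125). That difference was 0.19 (SE 0.26) without WTSH mouse 19, 0.62 (SE 0.27, edgeR unadjusted p = 0.0324, adjusted p = 1) without WTSH mouse 5 and 0.062 (SE 0.26) without the plexus-rich libraries.

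Bmp4, a secreted ligand that is made by committed precursors and also by meningeal and plexus tissue, was low and uneven. Its level was 92.6 to 198 normalized counts in the 5 plexus-rich libraries and 22.9 to 61.5 in the other 16, with no overlap. Across housing, the averaged log2 fold change was 0.64 (SE 0.36, adjusted p = 0.321) with all 21 libraries and -0.11 (SE 0.19, adjusted p = 0.824) without those 5, and in WT mice it went from 0.27 to -0.44. The direction for Bmp4 therefore depended on which libraries were included.

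**Figure D2:**
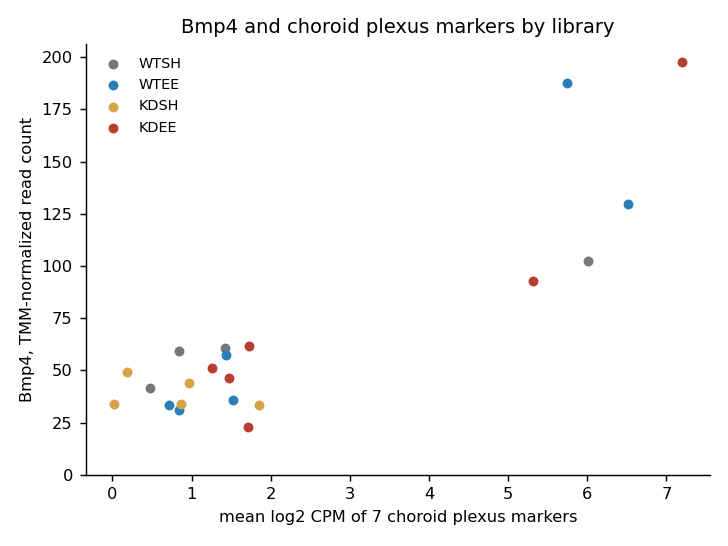
Bmp4 (y axis, TMM-normalized read count, from 0) against the mean log2 CPM of 7 choroid plexus markers (x axis) in the 21 kept libraries, coloured by group. The 5 libraries with marker means above 5 have the 5 highest Bmp4 levels, 92.6 to 198.

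The precursor surface genes moved little. Pdgfra, the receptor for the precursor mitogen PDGF-A, had 2621, 2798, 3029 and 3276 normalized counts in WTSH and 2440 to 3041 in WTEE, with medians of 2914 and 2869. In MSK1 KD mice it had 2477, 2695, 2791, 3001 and 3058 counts in KDSH and 2942 to 3351 in KDEE. Of the 6 KDEE libraries, 5 exceeded every KDSH library. The log2 fold change with enrichment was 0.17 (SE 0.07, adjusted p = 0.384) in MSK1 KD and -0.06 (SE 0.07, adjusted p = 0.733) in WT mice. The difference between these effects, 0.24 (SE 0.10), had an unadjusted p of 0.0241 and an adjusted p of 1 by edgeR, and was 0.12 (SE 0.09, unadjusted p = 0.241) without the plexus-rich libraries. KDEE was also above WTEE by 0.17 (SE 0.06, edgeR unadjusted p = 0.0128, adjusted p = 0.613), with 5 of 6 KDEE libraries above every WTEE library. Without the plexus-rich libraries the unadjusted p for this genotype difference was no longer under 0.05.

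Cspg4, the gene of NG2, which pericytes of the vessel wall also carry, was close to the same level in every group, with means of 1451 ± 178 (SD, n = 4) in WTSH, 1448 ± 343 (n = 6) in WTEE, 1512 ± 224 (n = 5) in KDSH and 1649 ± 243 (n = 6) in KDEE. The wide WTEE spread came from mouse 10 with 809 counts, and the next lowest of all libraries had 1216. Its averaged log2 fold change with enrichment was 0.06 (SE 0.11, edgeR adjusted p = 0.759), and in WT mice it was -0.0016 with and 0.12 without mouse 10. The mean log2 CPM of the pericyte and smooth muscle list ranged from 2.91 to 3.45 over the 21 libraries. Its Pearson r with Cspg4 was 0.01 over all 21 (permutation adjusted p = 0.978) and Spearman's rho 0.40 (adjusted p = 0.206). Without mouse 10 the r was 0.58, and without the plexus-rich libraries 0.51. The part of pericytes in the Cspg4 level was not tested.

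The transcription factors had positive fold changes with enrichment in both genotypes. Olig1, which promotes maturation and myelin repair, had 6916, 7156, 7478 and 8201 normalized counts in WTSH, and 6854 to 10694 in WTEE with a median of 8426. It had 5985, 6415, 7365, 7887 and 8489 counts in KDSH, and 7357 to 11176 in KDEE with a median of 9214. Of the 12 enriched libraries 10 lay above the standard-housed median and 7 above every standard-housed library. The log2 fold change was 0.20 (SE 0.12) in WT, 0.38 (SE 0.12, edgeR adjusted p = 0.342) in MSK1 KD, and 0.29 on average (SE 0.08, unadjusted p = 0.00251, adjusted p = 0.189), with an exact permutation p of 0.00522.

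Olig2, needed to specify the lineage, had means of 1824 ± 237 (SD, n = 4) in WTSH, 1926 ± 213 (n = 6) in WTEE, 1767 ± 305 (n = 5) in KDSH and 2177 ± 411 (n = 6) in KDEE. All groups overlapped, and the averaged log2 fold change was 0.19 (SE 0.09, edgeR adjusted p = 0.272). Sox10, which activates myelin genes together with Myrf, had means of 3511 ± 281 (n = 4), 3769 ± 560 (n = 6), 3501 ± 388 (n = 5) and 3796 ± 384 (n = 6) in the same order. Its averaged log2 fold change was 0.11 (SE 0.07, adjusted p = 0.373). The effects in WT and MSK1 KD mice differed by 0.22 (SE 0.19) for Olig2 and 0.01 (SE 0.14) for Sox10.

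**Figure D3:**
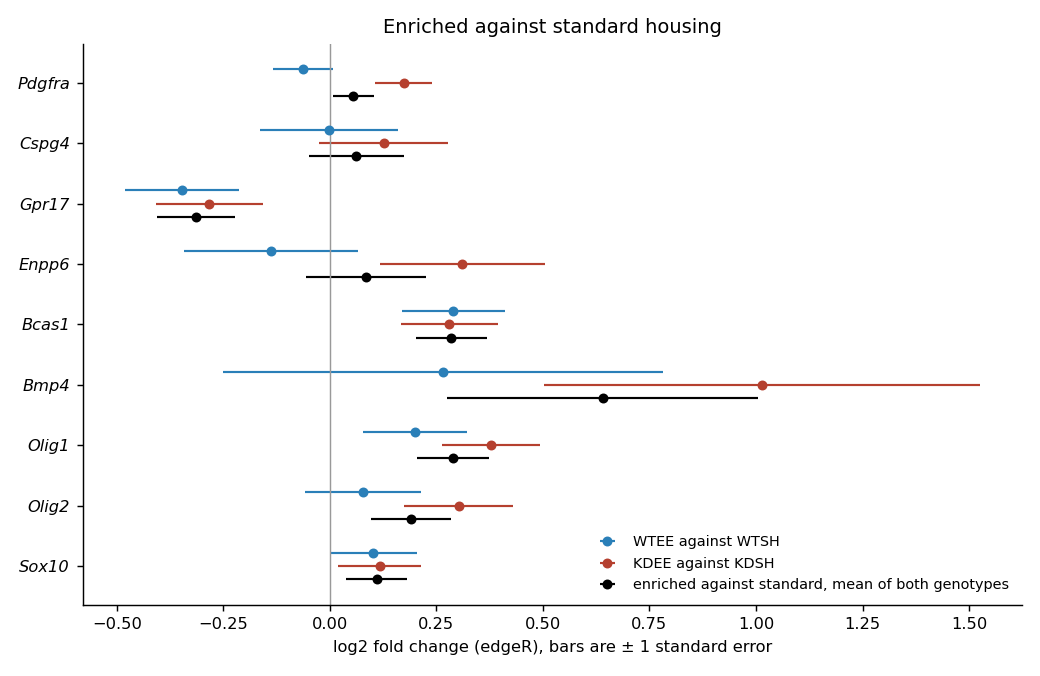
Log2 fold changes (x axis, edgeR) of the 9 genes (y axis) for enriched against standard housing in WT mice (blue), in MSK1 KD mice (red) and averaged over genotype (black), with bars of 1 standard error. Gpr17 lies to the left of 0 and Bcas1 and Olig1 to the right in both genotypes, and Bmp4 has the widest bars.

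Genotype was compared within each housing. Between KDSH and WTSH the log2 fold changes of the other 8 members lay between -0.23 (Enpp6) and 0.06 (Cspg4), with Bmp4 at -0.76 (SE 0.56), and 0 of 9 members had an unadjusted p under 0.05 by edgeR, against 1% of all genes. Between KDEE and WTEE 1 of 9 did (Pdgfra), against 4.99% of all genes. With 4 and 5 libraries a difference of this size is not shown to be absent: the standard errors for the members other than Bmp4 were 0.07 to 0.21 on the log2 scale.

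Of the 9 members 8 had a positive averaged log2 fold change with enrichment, against 51.9% of all genes, with a median of 0.11 against 0.01 over all genes. Within WT mice 5 of 9 were positive (51.5% of all genes), and within MSK1 KD mice 8 of 9 (50.4%). In WT mice 1 member was higher and 1 lower at an unadjusted p under 0.05 (3.95% and 2.6% of all genes), and in MSK1 KD mice 4 were higher and 1 lower (5.64% and 5.98%). Without the plexus-rich libraries the averaged contrast had 3 of 9 members at an unadjusted p under 0.05, against 14.6% of all genes in that fit, with values of -0.33 for Gpr17, 0.27 for Bcas1 and 0.23 for Olig1. In that fit 7 of 9 were positive on average, with a median of 0.09 against -0.0027 over all genes. Within WT mice 7 were positive. In MSK1 KD mice 8 were, with a median of 0.15, against 0.28 in all 21 libraries. The members were read in the same libraries and are not independent of each other.

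Other genes of the lineage gave the setting. Of 10 further precursor genes 7 had a positive averaged log2 fold change, with a median of 0.02, and those with the smallest p were Lhfpl3 at 0.14 (SE 0.06) and the adhesion gene Pcdh15 at -0.26 (SE 0.12). Of 10 tested genes of newly formed oligodendrocytes 6 were positive, with a median of 0.03, and none had an unadjusted p under 0.05 (9.77% of all genes higher and 9.13% lower). The smallest p values among these were those of Neu4, at 0.10, and Lims2, at 0.14, the gene that overlaps Gpr17. Of 8 further lineage transcription factors 5 were positive, with Nkx6-2 at 0.35 (SE 0.12, edgeR adjusted p = 0.204) and Sox8 at 0.11 (SE 0.06).

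Mature myelin genes, in contrast, all pointed one way. All 12 had a positive averaged log2 fold change, with a median of 0.25, and 10 had an unadjusted p under 0.05 (9.77% of all genes in that direction), although 0 were called. In WT mice 1 of the 12 had an unadjusted p under 0.05 (3.95% of all genes), with a median of 0.21. In MSK1 KD mice 10 did (5.64%), with a median of 0.29. These genes were read in the same libraries and are not independent of each other. Mag, an adhesion molecule of the myelin sheath, was at 0.24 (SE 0.07, edgeR adjusted p = 0.186), and Mbp, a major protein of compact myelin, at 0.26 (SE 0.08, adjusted p = 0.196). Mbp had means of 153245 ± 29183 (SD, n = 4) normalized counts in WTSH, 176409 ± 17279 (n = 6) in WTEE, 144927 ± 19654 (n = 5) in KDSH and 180197 ± 17187 (n = 6) in KDEE. All 7 choroid plexus markers were also positive in the averaged contrast, with a median of 2.32. The mean log2 CPM of the myelin list was 7.91 to 8.11 in the 5 plexus-rich libraries and 7.40 to 8.07 in the other 16. Fold changes without those 5 libraries are given for members only, and the part of plexus tissue in the myelin values was not tested.

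The ligands and signalling genes tied to Pdgfra and Bmp4 were examined as lists, which were chosen with earlier results of these data known. Of 4 PDGF ligands and Pdgfrb, 4 genes of 5 had a positive averaged log2 fold change. Pdgfa, the main ligand of the receptor encoded by Pdgfra, was at 0.16 (SE 0.07, edgeR adjusted p = 0.240), and Pdgfrb, the pericyte receptor, at 0.12 (SE 0.07). Of 17 BMP pathway genes 13 were positive (51.9% of all genes), with a median of 0.11. At an unadjusted p under 0.05, 2 were higher and 2 lower, near the shares of all genes (9.77% and 9.13%). The 2 with the smallest p are named. Id2, a BMP-responsive inhibitor of helix-loop-helix factors, was at 0.29 (SE 0.07, adjusted p = 0.174), with 2957 ± 239 (SD, n = 4) normalized counts in WTSH, 3392 ± 653 (n = 6) in WTEE, 2758 ± 110 (n = 5) in KDSH and 3597 ± 193 (n = 6) in KDEE. Chrd, a secreted BMP antagonist, was at -0.28 (SE 0.07, adjusted p = 0.179). No gene of these lists was called.

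Across the 21 libraries, the members were then compared with each other on the log2 CPM scale. In all 72 relations were computed, 36 between members and 36 with other measures of the libraries, and 16 had an adjusted p under 0.05 with 100000 permutations (9 and 7, respectively) for Pearson's r, of which 11 also had one for Spearman's rho. A positive block joined the transcription factors and Bcas1. Bcas1 and Olig1 had r = 0.85 and rho = 0.85, with the smallest permutation p obtainable, 1e-05 (adjusted p = 0.00018). Olig2 and Sox10 had r = 0.82 (rho = 0.85), Olig1 and Olig2 r = 0.80 (rho = 0.79), and Olig1 and Sox10 r = 0.79 (rho = 0.87). Without the 2 libraries farthest from the median these 4 values of r were 0.79, 0.80, 0.74 and 0.77, and centred on the group means 0.78, 0.82, 0.74 and 0.80. The permutation p was at most 5e-05 for each r (adjusted p at most 0.000514).

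Gpr17 ran against Bcas1, with r = -0.64 (permutation p = 0.00093, adjusted p = 0.00837) and rho = -0.59 (p = 0.0051, adjusted p = 0.0334), and against Olig1, with r = -0.54 (permutation p = 0.0109, adjusted p = 0.0490) and rho = -0.54 (p = 0.0128, adjusted p = 0.0595). Both were weaker without WTSH mouse 5 and WTEE mouse 10, the 2 farthest libraries, at -0.46 and -0.38, and centred on the group means, at -0.44 and -0.35. Pdgfra and Enpp6 had r = 0.56 (rho = 0.62, adjusted p = 0.0468 and 0.0261), which was 0.45 within groups and 0.31 without the plexus-rich libraries. Bcas1 also had r = 0.55 with Olig2 (adjusted p = 0.0490) and 0.57 with Sox10 (adjusted p = 0.0468). For rho the adjusted permutation p was 0.105 with Olig2 and 0.0411 with Sox10. Centred on the group means these r were 0.44 and 0.49, and without the plexus-rich libraries 0.46 and 0.43. Cspg4 and Olig2 had rho = 0.70 (permutation p = 0.00066, adjusted p = 0.00528), while their r was 0.48 (adjusted p = 0.103), and 0.75 without WTEE mouse 10. With values centred on the group means 4 member pairs had an adjusted p under 0.05, and without the 2 farthest libraries 5 did.

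**Figure D4:**
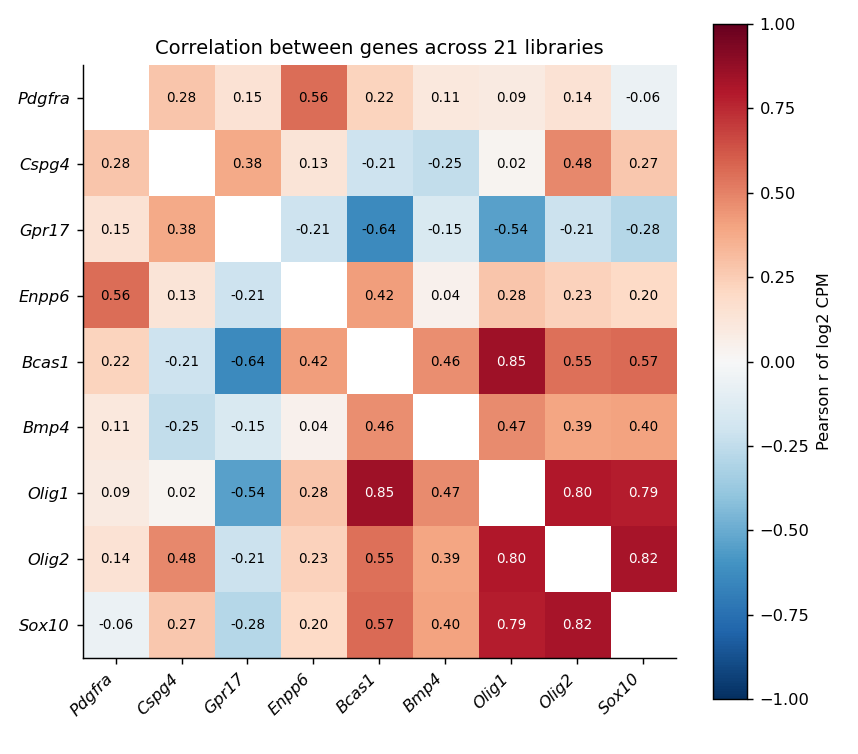
Pearson r of log2 CPM between each pair of the 9 genes over the 21 kept libraries (colour and number in each cell, rows and columns are genes). Bcas1, Olig1, Olig2 and Sox10 form a positive block from 0.55 to 0.85, and Gpr17 is negative with Bcas1 (-0.64) and Olig1 (-0.54).

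The mean log2 CPM of the 12 mature myelin genes followed several members closely. It had r = 0.93 (rho = 0.89) with Bcas1, 0.78 (rho = 0.76) with Olig1 and 0.67 (rho = 0.71) with Enpp6. With Gpr17 it had r = -0.62 (rho = -0.54), and with Olig2 and Sox10 0.55 and 0.56; the adjusted permutation p for Pearson's r was under 0.05 for all 6, from 0.00018 for Bcas1 to 0.0490 for Olig2. For rho it was 0.0595 for Gpr17 and Sox10 and 0.140 for Olig2. Without the 2 farthest libraries, KDSH mouse 8 and WTSH mouse 5, the values were 0.92 for Bcas1, 0.74 for Olig1, 0.52 for Enpp6 and -0.42 for Gpr17. Centred on the group means they were 0.91, 0.67, 0.71 and -0.44. With this myelin mean as a covariate in the edgeR model, the averaged log2 fold changes with enrichment were 0.06 (SE 0.05) for Bcas1, 0.11 (SE 0.08) for Olig1 and -0.18 (SE 0.10) for Gpr17, and 0 of 9 members had an unadjusted p under 0.05, against 2.42% of all genes in that fit and 9.77% (higher) and 9.13% (lower) without the covariate. The covariate itself differed between the housing groups, with group means of 7.69 (WTSH), 7.91 (WTEE), 7.63 (KDSH) and 7.94 (KDEE).

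**Figure D5:**
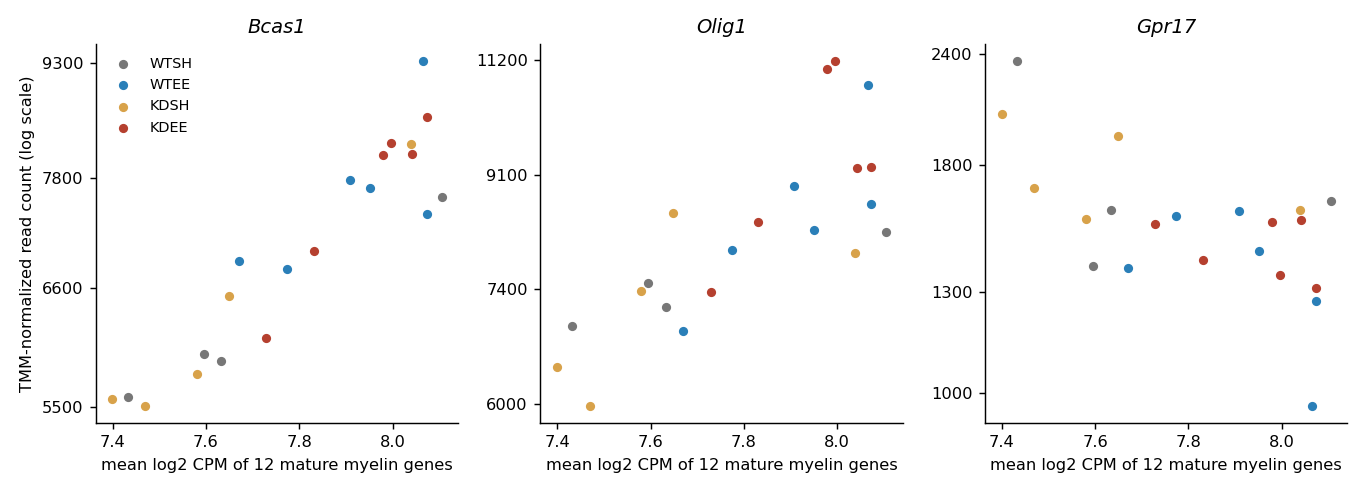
TMM-normalized read counts (y axes, log scale) of Bcas1, Olig1 and Gpr17 against the mean log2 CPM of 12 mature myelin genes (x axes) in the 21 kept libraries, coloured by group. Bcas1 and Olig1 climb with the myelin mean (r = 0.93 and 0.78) and Gpr17 declines (r = -0.62), and WTEE mouse 10 is the lowest Gpr17 point.

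Bmp4 was also set beside another tissue measure, as a description without a test. In the 16 libraries that were not plexus-rich, its r with the mean log2 CPM of 6 fibroblast markers was 0.56, and the fibroblast mean was 2.06 to 2.80 in those and 2.72 to 3.86 in the 5 plexus-rich ones. No pooled r is given for Bmp4 and the fibroblast mean because the libraries fall into these separate sets. The pooled relation is nevertheless among the 7 with other measures counted above. Counts assigned to structural RNA genes made up 0.0330% to 2.49% of each kept library, and within the kept libraries this share ran against Gpr17 and Pdgfra. With Gpr17 it had r = -0.52 (permutation p = 0.0287, adjusted p = 0.103) and rho = -0.56 (p = 0.00863, adjusted p = 0.0478), with r = -0.51 without WTSH mouse 2 and WTEE mouse 10, the 2 farthest libraries, and -0.59 centred on the group means. With Pdgfra it had r = -0.52 (permutation p = 0.0123, adjusted p = 0.0520) and rho = -0.48 (p = 0.0280, adjusted p = 0.105), with r = -0.29 without those 2 libraries and -0.56 centred. The 3 libraries set aside had far higher shares, 5.50% to 22.8%. Over all 24 libraries r was 0.26 with Gpr17, the opposite sign, and -0.28 with Pdgfra. For the other 7 members neither coefficient had an adjusted p under 0.05 in the kept libraries. With the share as a covariate in the edgeR model, the averaged log2 fold change of Gpr17 with enrichment was -0.30 (SE 0.08).

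Among 13623 genes with a mean of at least 100 normalized counts, the genes most like each member over the 21 libraries were listed by Pearson r, as a description. For Bcas1 they were Mbp (r = 0.94) and Plekhb1 (0.94), and for Enpp6 Erbin (0.92) and Ugt8a (0.90), the last an enzyme of myelin lipid synthesis. For Gpr17 they were Lrch3 (0.90) and Nhsl1 (0.89), for Pdgfra Myo6 (0.87) and Chpt1 (0.85), and for Cspg4 Sall2 (0.95) and Notch3 (0.92). For Olig1 they were Lbh (0.91) and Mid1ip1 (0.91), for Olig2 Desi1 (0.90) and Litaf (0.88), and for Sox10 Fam122a (0.90) and Map3k11 (0.88). For Bmp4 they were Perp (0.94) and Slc13a4 (0.93), values that span the plexus-rich and other libraries. The Cspg4 values include the low library of WTEE mouse 10.

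The 3 libraries set aside by the study were scaled with all 24 libraries together, and most of their member levels fell within the range of the 21 kept libraries on that scale. Olig1 had 5526 normalized counts in WTSH mouse 4 and 5525 in WTSH mouse 7, just under the lowest kept value of 5565. WTSH mouse 7 also had 4915 counts of Bcas1 and 2710 of Sox10, below the lowest kept values of 5125 and 2781, while its Gpr17 level of 2183 was near the highest kept value of 2197. KDSH mouse 6 lay within the kept range for all 9 members, with Pdgfra at 2278 against a lowest kept value of 2277. With these 3 included, the averaged log2 fold changes with enrichment were -0.35 for Gpr17, 0.29 for Bcas1 and 0.33 for Olig1 (edgeR adjusted p = 0.0688, 0.0688 and 0.0681), and 0 members were called. All 3 were standard-housed and had structural RNA shares of 5.50% to 22.8%. What they add to the housing contrast therefore cannot be told apart from library quality.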

How the data were processed

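Poly(A) RNA of 24 mouse hippocampi was sequenced. The authors removed adapters with Skewer, mapped the read pairs to GRCm38 by STAR 2.5, and deposited raw counts per gene symbol from HTSeq 0.6.1p1, using unique alignments and ignoring strand (quality control used FastQC 0.11.3). The 21 libraries kept by the study were used, with 27410239 to 71907130 counts on genes, and the 3 others (15800187 to 39585901) only where stated. Counts were scaled by TMM, filtered with filterByExpr and tested with glmQLFit and glmQLFTest of edgeR 4.0.16 (R 4.3.3), with all 4 groups in 1 model and Benjamini-Hochberg adjustment over 20187 genes. The Wald test of DESeq2 1.42.0 was an alternative. The study assigned cages, rather than single mice, to housing and kept more males in an enriched cage than in a standard one. The cage of each mouse is not given, so mice of a group may have shared a cage. Nothing in the sources used here says whether mice shared a litter or preparation day. The p values treat mice as independent and measure only the spread between these mice. Correlations used log2 CPM with a prior count of 2.

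On simulated counts for the averaged housing contrast, edgeR recovered 192 of 200 genes changed by a log2 fold change of 1 (96%), with 4 false calls among 20170 genes. The changed genes had a mean of at least 50 counts. The members' averaged housing changes were smaller, from -0.31 (Gpr17) to 0.64 (Bmp4). The recovery therefore does not describe the power to call changes of the members' size. RPKM values and positions used GENCODE M21 exons. The members and lists were chosen with earlier results of these data known. Besides the 9 members, the genes named are the 2 of each pathway list with the smallest unadjusted p for averaged housing, markers used for tissue checks, and the 2 genes most like each member. Alternatives were another test, size factors, no filter, all 24 libraries, a robust fit, no fold threshold, 2 covariates, leaving out each library, and, added later, leaving out 5 libraries rich in choroid plexus markers (mean log2 CPM above 5). Figures were drawn with matplotlib 3.10.9.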

Additional observations from a re-analysis of the deposited data

How the results depend on the processing

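No paired analysis was possible because each mouse number occurs in 1 group only. The numbers run in blocks: mice 1 to 8, which include the libraries set aside, were all standard-housed. Mice 9 to 17 were all enriched, and 18 to 24 were mixed. Whether the numbers follow an order of handling is not stated. If they do, that order and housing cannot be told apart over mice 1 to 17. The count of members called was 0 in all 7 contrasts under every alternative run: DESeq2, its size factors in edgeR, no filter, all 24 libraries, a robust fit, no fold threshold, both covariates, each library left out and the plexus-rich libraries left out. Counts of all genes called were low and unstable: DESeq2 called 2 (WTEE against WTSH), 14 (KDEE against KDSH), 118 (KDEE against WTEE), 41 (averaged housing) and 20 (the interaction) where edgeR called 0, 0, 0, 1 and 0, all 24 libraries gave 1 (WTEE against WTSH) and 15 (averaged housing), the myelin covariate 0 (averaged housing) and the structural RNA covariate 17 (the interaction). Leaving out 1 library gave 0 to 1 for WTEE against WTSH (1 without WTEE mouse 13) and 0 to 6 for averaged housing (6 without WTEE mouse 21, 0 without WTSH mouse 5). Of the relations across libraries, 4 member pairs passed with values centred on the group means and 5 without the 2 farthest libraries, against 9, and 3 relations with other measures passed without the 2 farthest and 4 without the plexus-rich libraries, against 7. The averaged housing fold changes of Gpr17, Bcas1 and Olig1 kept their direction under every alternative run, and the cause of the changes below was not tested. Some uncalled member fold changes (log2), mostly near 0, changed sign. Without the plexus-rich libraries (chosen after seeing the data) these were Pdgfra 0.035, Cspg4 0.093, Enpp6 0.24 and Bmp4 -0.44 (WTEE against WTSH), Gpr17 -0.0078, Enpp6 0.033, Olig1 0.0090, Olig2 0.00074 and Sox10 0.031 (KDSH against WTSH), Cspg4 -0.019, Gpr17 -0.011 and Bmp4 0.20 (KDEE against WTEE), Bmp4 -0.11 (averaged housing), Gpr17 -0.0096 and Enpp6 0.064 (averaged genotype) and Cspg4 -0.070 and Gpr17 -0.0037 (the interaction). With the myelin mean as covariate these were Cspg4 0.063, Bmp4 -0.090 and Olig2 -0.019 (WTEE against WTSH), Enpp6 -0.023 and Sox10 -0.011 (KDEE against KDSH), Gpr17 -0.0060 and Sox10 0.022 (KDSH against WTSH), Bcas1 -0.026 and Sox10 -0.0014 (KDEE against WTEE), Enpp6 -0.18 (averaged housing), Enpp6 0.029 (averaged genotype) and Sox10 -0.024 (the interaction). With the structural RNA share as covariate these were Gpr17 -0.067, Olig2 0.0067 and Sox10 0.024 (KDSH against WTSH), Gpr17 -0.017 (KDEE against WTEE) and Gpr17 -0.042 (averaged genotype). With all 24 libraries these were Cspg4 -0.054, Olig1 0.088, Olig2 0.016 and Sox10 0.072 (KDSH against WTSH), Enpp6 0.022 (averaged genotype) and Sox10 -0.062 (the interaction). Without the filter these were Sox10 -0.0027 (averaged genotype) and Bcas1 0.0047 (the interaction). With DESeq2-style size factors these were Cspg4 0.00077 (WTEE against WTSH). Leaving out 1 library at a time, the following ranges crossed 0: Cspg4 -0.077 to 0.12, Enpp6 -0.30 to 0.13 and Bmp4 -0.18 to 0.56 (WTEE against WTSH), Cspg4 -0.020 to 0.12, Gpr17 -0.078 to 0.20, Enpp6 -0.40 to 0.032, Bcas1 -0.097 to 0.12, Olig1 -0.11 to 0.020, Olig2 -0.13 to 0.033 and Sox10 -0.065 to 0.032 (KDSH against WTSH), Bcas1 -0.026 to 0.074, Bmp4 -0.53 to 0.43 and Sox10 -0.050 to 0.076 (KDEE against WTEE), Enpp6 -0.088 to 0.13, Bcas1 -0.045 to 0.066 and Sox10 -0.030 to 0.036 (averaged genotype) and Gpr17 -0.11 to 0.17, Bcas1 -0.11 to 0.10 and Sox10 -0.045 to 0.080 (the interaction). Bmp4, at 24 to 195 raw counts, had the least depth behind it. Counting intervals would not cover PCR copies, which cannot be recognised here.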

Other observations

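The ratio of Bcas1 to Gpr17 counts within a library uses no scaling between libraries. This ratio and the others here were chosen after the values of the genes were seen, so they restate levels already given and carry no test. The ratio was 2.37 to 4.62 in the 4 WTSH libraries and 4.30 to 9.63 in the 6 WTEE libraries, with medians of 3.98 and 5.15. It was 2.71 to 5.12 in the 5 KDSH libraries and 3.95 to 6.54 in the 6 KDEE libraries, with medians of 3.35 and 5.18. The groups overlapped in both genotypes. The ratio of Gpr17 to Pdgfra, a committed against an early precursor gene, was 0.501 to 0.778 in WTSH and 0.397 to 0.589 in WTEE, and 0.525 to 0.785 in KDSH and 0.400 to 0.505 in KDEE. The ratio of Olig1 to Olig2, which are neighbours on chromosome 16, had group medians from 3.93 in KDSH to 4.34 in KDEE and varied from 3.61 to 5.44 over the 21 libraries.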
